A study of Mus musculus with 20 samples.

Results

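The 41 genes described here encode proteins that carry a dividing cell from the onset of mitosis through chromosome segregation to cytokinesis. They were taken by name, a probe being assigned when its gene name or RefSeq accession matched (Cdc2a is the older name of Cdk1). The rule uses no measured value, but the set was put together with earlier results of these data known. All 41 of the 41 genes had a probe that was well above background on at least 4 of the 20 arrays, and they make up 41 of the 21932 features tested. Of their 71 probes 68 passed that filter, and each gene was represented by its probe with the highest mean signal.

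RNA came from epithelial cells released from the intestine of healthy, untreated 28-day-old mice and hybridised to 1 one-colour Agilent array per animal. The epithelium was loosened with EDTA and enriched by sedimentation, and few CD45-positive immune cells remained by flow cytometry, per the labels. There were 5 genotypes of 4 animals: wild type (wt), mice homozygous for the mutation written Trif LPS/LPS, and mice with a knockout (KO) of Tlr3, of Tlr4 or of MyD88. TLR3 senses double-stranded RNA and TLR4 senses lipopolysaccharide, both signal through the adaptor TRIF, and TLR4 and most other Toll-like receptors signal through the adaptor MyD88. The design asks how the loss of each of these molecules affects epithelial expression in the absence of infection. The strain is given as C57BBL6 for every mouse, and the labels name no Cre driver, no gut segment, no sex and no litter. The mutations are therefore not known to be restricted to the epithelium, and genotype cannot be told apart from the colony or litter a mouse came from.

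Entry into mitosis is driven by the kinase CDK1 bound to cyclin B. The spindle assembly checkpoint holds a cell in metaphase until every kinetochore is attached to spindle microtubules. The anaphase-promoting complex, loaded with CDC20, then marks cyclin B and securin for destruction, separase opens cohesin and the sister chromatids part. Most of these genes are transcribed in a wave in G2, so that their mRNAs are found mainly in cells that are about to divide. In the intestine such cells are the stem and transit-amplifying cells of the crypts, whereas the absorptive cells of the villi no longer divide. In RNA from whole epithelium, fewer dividing cells and less mRNA per dividing cell cannot be told apart.

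The share of probes detected well above background ranged from 64.9% to 73.4% over 16 arrays scanned on the first day. It ranged from 71% to 85.5% over the 4 MyD88 KO arrays, which were scanned on another day with another scanner, so that genotype and scan cannot be told apart for them. Those 16 arrays shared 4 slides, 1 mouse of each of the 4 genotypes per slide. On every such slide wild type was at position 1, Trif mutant at 2, Tlr4 KO at 3 and Tlr3 KO at 4. Genotype and position on the slide cannot be told apart. The targeted genes went with the labels for Tlr3 (well above background on 0 of 4 Tlr3 KO and 4 of 4 wild type arrays) and for Myd88 (0.84 to 1.08 in the knockout, 1.99 to 2.26 in wild type). They could not check 2 genotypes, since Tlr4 was well above background on only 1 of 4 wild type arrays and the Trif transcript, Ticam1, was present in the Trif mutants (1.67 to 2.23, 1.25 to 1.60 in wild type). Y-linked signal exceeded Xist in all 4 MyD88 KO mice, 3 of the 4 Trif mutants, 1 of the 4 Tlr3 KO mice and 0 of the 8 wild type and Tlr4 KO mice, so the sexes were unequally spread over the genotypes.

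The promoters show what these genes share besides function. Many genes expressed in G2 and mitosis carry a cell cycle genes homology region, a short element spelled TTTGAA or, less often, TTCGAA, which is read by the DREAM and MYB-MuvB complexes, and CCAAT boxes, which bind the factor NF-Y. Each motif was searched on both strands of the 300 bases from 250 before to 50 after each RefSeq start (assembly GRCm38.p6). TTCGAA reads the same on both strands, and a CCAAT hit can share its end bases with a TTTGAA hit. Of the 41 genes 37 had an entry, with 39 promoters between them (Kif20a, Aurkb, Ccna2 and Tpx2 had none). TTTGAA stood in 74.4% of the 39 promoters and in 17.9% of all 32851 promoters of that table. The corresponding shares were 7.69% and 1.56% for TTCGAA, and 76.9% and 37.4% for CCAAT. Either homology region motif together with CCAAT was found in 66.7% of the mitosis gene promoters, against 7.52% of all promoters. Of the genes that did not fall in the Trif mutants, described further on, Bub1 holds TTCGAA at 15 to 20 bases after its start and Ndc80 holds TTTGAA on the opposite strand at 30 to 35 bases after it. A match in these letters is a description and does not show that a factor binds there.

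Stretches from 6 of these promoters are printed below. They belong to those genes among Cdk1, Mki67 and the gene with the highest mean signal of each role group, whose values are given on all 20 arrays, that hold TTTGAA; Cks2, Mad2l1 and Birc5 hold neither homology region motif. Each runs 5′ to 3′ on the strand of its gene. Capitals mark TTTGAA (or TTCAAA, the same motif on the opposite strand) and CCAAT (or ATTGG on the opposite strand). They come from RefSeq, assembly GRCm38.p6: Cdk1 at chr10:69352913-69353032 (minus strand), Cdc20 at chr4:118437344-118437463 (minus), Kif22 at chr7:127042421-127042540 (minus), Mki67 at chr7:135716452-135716571 (minus), Prc1 at chr7:80294335-80294456 (plus) and Aurka at chr2:172370523-172370548 (minus). The Aurka stretch begins 23 bases after the start, the Prc1 stretch ends 6 bases after it, and the others lie before it.
Cdk1: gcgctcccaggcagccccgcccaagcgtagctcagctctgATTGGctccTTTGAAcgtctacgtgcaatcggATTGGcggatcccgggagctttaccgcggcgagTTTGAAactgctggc
Cdc20: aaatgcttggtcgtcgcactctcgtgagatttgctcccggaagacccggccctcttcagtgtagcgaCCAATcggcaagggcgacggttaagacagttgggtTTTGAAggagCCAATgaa
Kif22: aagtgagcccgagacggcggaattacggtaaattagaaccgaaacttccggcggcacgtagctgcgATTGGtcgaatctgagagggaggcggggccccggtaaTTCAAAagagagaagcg
Mki67: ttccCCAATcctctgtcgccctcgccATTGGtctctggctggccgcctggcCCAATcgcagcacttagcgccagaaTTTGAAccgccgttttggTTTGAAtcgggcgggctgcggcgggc
Prc1: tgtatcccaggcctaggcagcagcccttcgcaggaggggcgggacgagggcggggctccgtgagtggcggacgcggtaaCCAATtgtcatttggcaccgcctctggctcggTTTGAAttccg
Aurka: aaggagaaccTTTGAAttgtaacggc
Cdk1 holds TTTGAA at -71 to -66 and again at -15 to -10 relative to its start, and Mki67 holds it at -116 to -111 and at -98 to -93. In Cdc20 the motif lies at -18 to -13 and in Kif22, on the opposite strand, at -17 to -12.

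All but a few mitosis genes were lower in the Trif mutants than in wild type, most of them were lower in the Tlr3 KO mice by a smaller amount, and none passed the test in the Tlr4 KO mice. Levels below are log2 signals relative to each array's 75th percentile, a difference is a mean of 4 arrays minus a mean of 4 arrays with its standard error, and the adjusted p is limma's after Benjamini-Hochberg adjustment over the 21932 features. "Fell" and "rose" mark an adjusted p under 0.05. In the Trif mutants 39 of the 41 genes fell and 0 rose, with a median difference of -2.38 (5.2-fold lower), while 15.7% of all features fell, 28.6% rose and their median difference was 0.19. (Under median scaling 17.4% of all features fell and 19.1% rose, and the same number of mitosis genes, 39, fell.) For 40 of the 41 genes all 4 Trif mutant arrays lay below all 4 wild type arrays, which was so for 13.9% of all features. In the Tlr3 KO mice 39 of 41 genes fell and 0 rose, with a median of -1.32 (2.5-fold lower), while 13.8% of all features fell, 24.7% rose and their median was 0.22. (Under median scaling 20.4% of all features fell and 11.5% rose, and 40 mitosis genes fell.) For 40 of 41 genes the 4 Tlr3 KO arrays lay below the 4 wild type arrays (14.9% of all features). These comparisons use the same 4 wild type arrays, so they are not independent of each other.

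**Figure D1:**
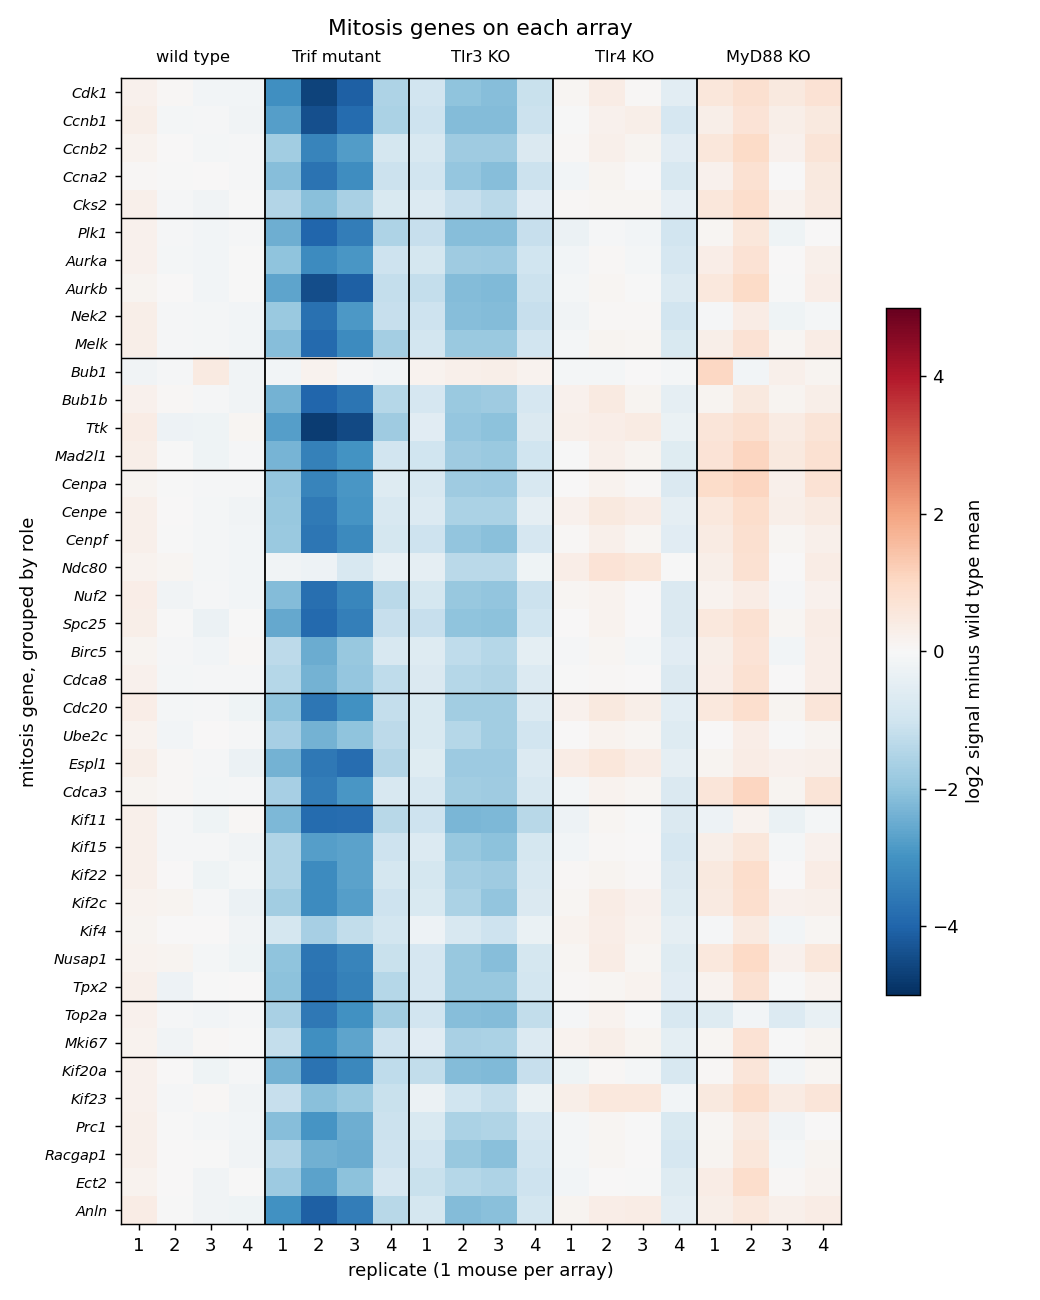
Log2 signal of each of the 41 mitosis genes on each of the 20 arrays minus the gene's wild type mean (colour, blue lower and red higher), with genes in rows grouped by role and arrays in columns grouped by genotype. The Trif mutant columns are the darkest blue except in replicate 4, the Tlr3 KO columns are a paler blue, and the rows of Bub1 and Ndc80 stand out as nearly white in the Trif mutants.

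The cyclin-dependent kinase and its partners are Cdk1, the cyclins Ccnb1, Ccnb2 and Ccna2, and Cks2, the small subunit that docks CDK1 on its substrates. All 5 fell in both the Trif mutants (median -2.50) and the Tlr3 KO mice (median -1.51). Cdk1 lay at 1.15, 0.96, 0.79 and 0.8 on the 4 wild type arrays, at -2.14, -3.69, -3.15 and -0.61 in the Trif mutants and at -0.05, -1.08, -1.2 and -0.18 in the Tlr3 KO mice. On the other arrays it lay at 1.01, 1.31, 0.97 and 0.38 (Tlr4 KO) and at 1.49, 1.73, 1.4 and 1.63 (MyD88 KO). The Trif mutant and Tlr3 KO arrays were all below zero and all others above it. The lowest values were those of Trif mutant replicates 2 and 3, and Trif mutant replicate 4 lay within the range of the Tlr3 KO arrays. The difference from wild type was -3.32 ± 0.46 in the Trif mutants (10-fold lower, adjusted p = 3.1e-05) and -1.55 ± 0.46 in the Tlr3 KO mice (2.93-fold lower, adjusted p = 0.0136). Cks2 moved less. Its levels were 3.99, 3.67, 3.55 and 3.71 in wild type, 2.25, 1.65, 2.12 and 2.98 in the Trif mutants and 3.04, 2.58, 2.4 and 3.16 in the Tlr3 KO mice. They were 3.77, 3.82, 3.82 and 3.31 in the Tlr4 KO mice and 4.28, 4.6, 3.91 and 4.17 in the MyD88 KO mice. Here too no Trif mutant or Tlr3 KO array reached the wild type range, and the differences were -1.48 ± 0.24 (adjusted p = 1.1e-04) and -0.94 ± 0.24 (adjusted p = 0.00554). Ccnb1, the cyclin that CDK1 needs to enter mitosis, fell by 3.14 on the log2 scale in the Trif mutants.

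The mitotic kinases Plk1, Aurka, Aurkb, Nek2 and Melk all fell in both genotypes, with medians of -2.70 in the Trif mutants and -1.61 in the Tlr3 KO mice. Aurora A, the product of Aurka, matures centrosomes and builds the spindle poles. Aurka was measured at 3.4, 3.09, 3.02 and 3.16 in wild type, at 1.14, 0.03, 0.26 and 2.12 in the Trif mutants and at 2.28, 1.4, 1.37 and 2.17 in the Tlr3 KO mice. It stood at 3.05, 3.24, 3.09 and 2.34 in the Tlr4 KO mice and at 3.49, 3.89, 3.17 and 3.43 in the MyD88 KO mice. Trif mutant replicates 2 and 3 were again lowest, and the wild type, Tlr4 KO and MyD88 KO ranges overlapped above all Trif mutant and Tlr3 KO arrays. The difference from wild type was -2.28 ± 0.36 in the Trif mutants (4.87-fold lower, adjusted p = 8.4e-05) and -1.36 ± 0.36 in the Tlr3 KO mice (2.58-fold lower, adjusted p = 0.00634). Aurkb, the kinase of the chromosomal passenger complex, changed by -3.08 ± 0.50 and -1.65 ± 0.50, the largest differences of the 5 kinases in both genotypes.

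Of the 4 spindle assembly checkpoint genes, Bub1b, Ttk and Mad2l1 fell in both genotypes and Bub1 in neither. Mad2l1 encodes MAD2, the protein that binds CDC20 and keeps it from the anaphase-promoting complex. Its levels were 0.94, 0.61, 0.42 and 0.56 in wild type, -1.69, -2.73, -2.35 and -0.33 in the Trif mutants and -0.37, -1.15, -1.24 and -0.38 in the Tlr3 KO mice. The Tlr4 KO arrays gave 0.61, 0.9, 0.75 and 0.01 and the MyD88 KO arrays 1.3, 1.7, 1.1 and 1.4. Every Trif mutant and Tlr3 KO array lay below zero and every other array above it. The differences from wild type were -2.41 ± 0.38 (5.3-fold lower, adjusted p = 8.9e-05) and -1.42 ± 0.38 (2.67-fold lower, adjusted p = 0.00739). Ttk, the checkpoint kinase MPS1, had the largest difference of all 41 genes in the Trif mutants, at -3.44 ± 0.51. It lay at -2.94, -3.57, -3.54 and -3.2 in wild type and at -6.06, -8.06, -7.83 and -5.07 in the Trif mutants. Its probe is dim and was well above background on only 2 of the 4 Trif mutant arrays, against 4 of 4 arrays of every other genotype, and the same held for Anln. The low Trif mutant values of both genes are thus close to the detection limit. After normexp background correction, neither passed the test in the Trif mutants (Ttk -0.20, adjusted p = 0.7; Anln -0.73, adjusted p = 0.164), so the rank of Ttk rests on the background correction. In the Tlr3 KO mice Ttk fell by 1.31 on the log2 scale with an adjusted p of 0.0497.

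Bub1, the kinase that brings checkpoint proteins to the kinetochore, was the exception, and its 2 probes disagreed. Both lie on chromosome 2 (mm9), where the annotation of exons was not used here. The brighter one (A_52_P259126, NM_001113179, chr2:127626326-127626385) gave -0.37, -0.26, 0.24 and -0.38 in wild type, -0.33, -0.01, -0.25 and -0.31 in the Trif mutants and -0.01, 0.05, 0.12 and -0.02 in the Tlr3 KO mice. The Trif mutant and Tlr3 KO values lay within the wild type range, and the differences were -0.03 ± 0.19 (adjusted p = 0.901) and 0.23 ± 0.19 (adjusted p = 0.354). The other (A_51_P123405, NM_009772, chr2:127626988-127627047) gave 0.11, -0.13, -0.27 and 0.11 in wild type, -2.79, -4.43, -4.08 and -1.28 in the Trif mutants and -1.12, -2.19, -2.2 and -1.17 in the Tlr3 KO mice. With this probe no Trif mutant or Tlr3 KO array reached the wild type range. In a fit over all 31603 kept probes it differed by -3.10 ± 0.49 (adjusted p = 8.7e-05) and by -1.63 ± 0.49 (adjusted p = 0.0140), much like the other checkpoint genes. The MyD88 KO arrays gave 0.86, -0.33, 0.06 and -0.04 with the first probe and 0.05, 0.82, -0.01 and 0 with the second. The probes carry different accessions, and why they disagree was not tested.

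**Figure D2:**
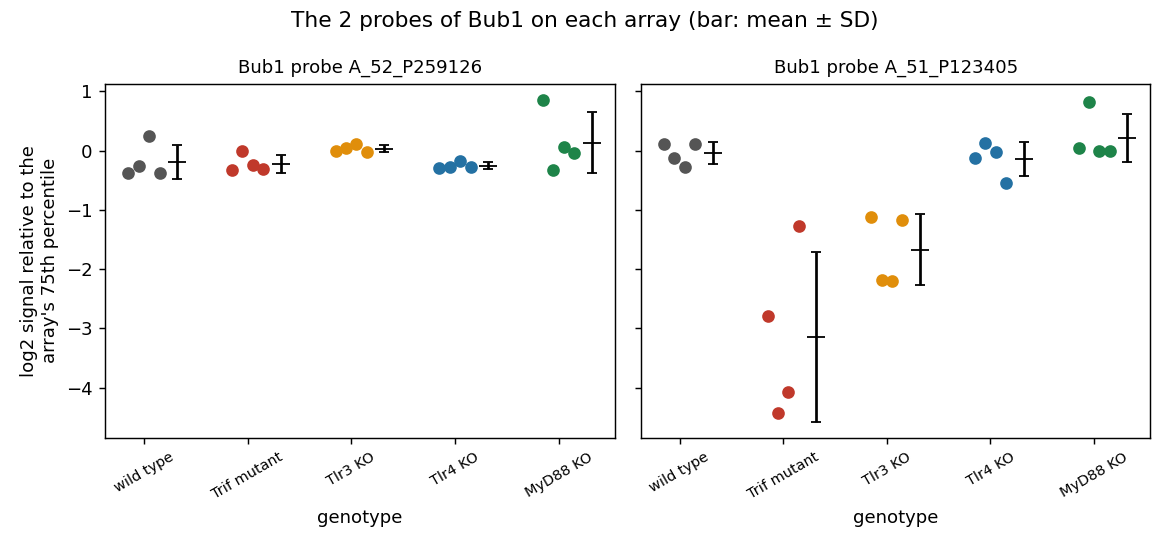
Log2 signal of the 2 Bub1 probes, relative to the array's 75th percentile, on each array by genotype (points: arrays; bars: mean ± SD of 4). The first probe stays between -0.38 and 0.86 on all 20 arrays, whereas the second falls to between -4.43 and -1.28 in the Trif mutants and between -2.20 and -1.12 in the Tlr3 KO mice.

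Kinetochore and chromosomal passenger genes were Cenpa, Cenpe, Cenpf, Ndc80, Nuf2, Spc25, Birc5 and Cdca8, and 7 of the 8 fell in the Trif mutants (median -2.25) and 7 of the 8 in the Tlr3 KO mice (median -1.19). Birc5 encodes survivin, which carries the passenger complex to the centromere together with borealin, the product of Cdca8. Birc5 stood at 4.88, 4.72, 4.61 and 4.83 in wild type, 3.45, 2.28, 2.88 and 3.96 in the Trif mutants and 4.13, 3.5, 3.33 and 4.28 in the Tlr3 KO mice. It stood at 4.69, 4.84, 4.68 and 4.2 in the Tlr4 KO mice and 5.04, 5.45, 4.62 and 5.11 in the MyD88 KO mice. The spread between the 4 Trif mutants was wide, from replicate 2 to replicate 4, yet all of them lay below wild type. Its differences were -1.62 ± 0.29 (3.07-fold lower, adjusted p = 2.9e-04) and -0.95 ± 0.29 (1.93-fold lower, adjusted p = 0.0167).

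Ndc80 and Nuf2 form the microtubule-binding end of the NDC80 complex and Spc25 belongs to its kinetochore end. Ndc80 was measured at -1.12, -1.2, -1.39 and -1.44 in wild type, at -1.45, -1.55, -2.09 and -1.68 in the Trif mutants and at -1.74, -2.63, -2.64 and -1.52 in the Tlr3 KO mice. The Trif mutant arrays lay just below the wild type range and replicates 2 and 3 of the Tlr3 KO mice lowest of all. Its difference was -0.41 ± 0.24 in the Trif mutants (adjusted p = 0.188) and -0.85 ± 0.24 in the Tlr3 KO mice (adjusted p = 0.0110). Nuf2, by contrast, differed by -2.64 ± 0.40 and -1.45 ± 0.40, and Spc25 by -2.75 ± 0.42 and -1.54 ± 0.42. Ndc80 had 1 probe on the array, so no other probe bears on it. Cenpe, the kinetochore kinesin, was the other gene that did not pass in the Tlr3 KO mice, at -1.08 ± 0.43 with an adjusted p of 0.0565, although all 4 arrays lay below wild type.

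Genes of anaphase onset and protein destruction, Cdc20, Ube2c, Espl1 and Cdca3, all fell in the Trif mutants (median -2.34) and in the Tlr3 KO mice (median -1.23). Cdc20 activates the anaphase-promoting complex and is the target of the checkpoint. Cdc20 was found at 4.05, 3.63, 3.64 and 3.51 in wild type, 1.69, 0.09, 0.67 and 2.52 in the Trif mutants and 2.95, 1.98, 1.98 and 3.02 in the Tlr3 KO mice. The Tlr4 KO arrays had 3.92, 4.2, 4.01 and 3.18 and the MyD88 KO arrays 4.24, 4.56, 3.83 and 4.32. All Trif mutant and Tlr3 KO arrays lay below every other array. It fell by 2.47 ± 0.41 in the Trif mutants (5.53-fold, adjusted p = 1.3e-04) and by 1.23 ± 0.41 in the Tlr3 KO mice (2.34-fold, adjusted p = 0.0240). Ube2c, the ubiquitin-conjugating enzyme of that complex, had the lowest adjusted p in both comparisons (1.5e-05 and 7.6e-04), with differences of -1.83 ± 0.23 and -1.21 ± 0.23. Espl1, which encodes separase, differed by -2.80 ± 0.41 and -1.23 ± 0.41.

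The spindle motors and microtubule binders Kif11, Kif15, Kif22, Kif2c, Kif4, Nusap1 and Tpx2 all fell in both genotypes, with medians of -2.17 and -1.38. KIF22 is a chromokinesin that pushes chromosome arms towards the metaphase plate. Kif22 gave 3.71, 3.49, 3.25 and 3.38 in wild type, 1.94, 0.33, 0.79 and 2.59 in the Trif mutants and 2.6, 1.76, 1.67 and 2.66 in the Tlr3 KO mice. It gave 3.5, 3.6, 3.52 and 2.73 in the Tlr4 KO mice and 3.93, 4.35, 3.48 and 3.83 in the MyD88 KO mice. The Tlr4 KO values were close together apart from replicate 4, and the Trif mutant and Tlr3 KO arrays lay below all others. Its differences were -2.04 ± 0.39 (4.12-fold lower, adjusted p = 4.3e-04) and -1.28 ± 0.39 (2.43-fold lower, adjusted p = 0.0150). Kif11, the kinesin that pushes the spindle poles apart, had the largest difference of the 41 genes in the Tlr3 KO mice, -1.74 ± 0.43. Kif4, a chromosome-bound kinesin, had the smallest of this role group, -1.16 ± 0.21 in the Trif mutants and -0.61 ± 0.21 in the Tlr3 KO mice.

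Top2a, the topoisomerase that untangles sister chromatids, and Mki67, the proliferation marker that coats mitotic chromosomes, fell in both genotypes. Mki67 was measured at 4.35, 4, 4.23 and 4.15 in wild type, 2.99, 1.11, 1.56 and 3.14 in the Trif mutants and 3.62, 2.55, 2.61 and 3.51 in the Tlr3 KO mice. In the Tlr4 KO mice it was at 4.35, 4.47, 4.32 and 3.69 and in the MyD88 KO mice at 4.27, 4.9, 4.17 and 4.31. Trif mutant replicates 1 and 4 overlapped the Tlr3 KO arrays, and replicates 2 and 3 lay below them. It fell by 1.98 ± 0.38 in the Trif mutants (3.95-fold, adjusted p = 4.6e-04) and by 1.11 ± 0.38 in the Tlr3 KO mice (2.16-fold, adjusted p = 0.0285). Top2a differed by -2.50 ± 0.37 and -1.63 ± 0.37.

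Among the genes of the central spindle and cytokinesis, Kif20a, Kif23, Prc1, Racgap1, Ect2 and Anln, all 6 fell in both genotypes, with medians of -2 and -1.37. PRC1 bundles antiparallel microtubules between the parting chromosomes. Prc1 lay at 3.07, 2.81, 2.71 and 2.7 in wild type, at 0.69, -0.11, 0.36 and 1.76 in the Trif mutants and at 2.06, 1.24, 1.31 and 1.99 in the Tlr3 KO mice. Its levels were 2.72, 2.9, 2.81 and 2.06 in the Tlr4 KO mice and 2.93, 3.25, 2.65 and 2.82 in the MyD88 KO mice. All Trif mutant and Tlr3 KO arrays lay below wild type, and the lowest Tlr4 KO array, replicate 4, stood level with the highest Tlr3 KO array. The differences were -2.15 ± 0.31 (4.44-fold lower, adjusted p = 4.2e-05) and -1.17 ± 0.31 (2.26-fold lower, adjusted p = 0.00675). Kif23 and Racgap1 together encode centralspindlin, and they differed by -1.56 ± 0.24 and -1.86 ± 0.32 in the Trif mutants and by -0.72 ± 0.24 and -1.47 ± 0.32 in the Tlr3 KO mice. Anln, the scaffold of the contractile ring, differed by -2.98 ± 0.43 and -1.51 ± 0.43.

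**Figure D3:**
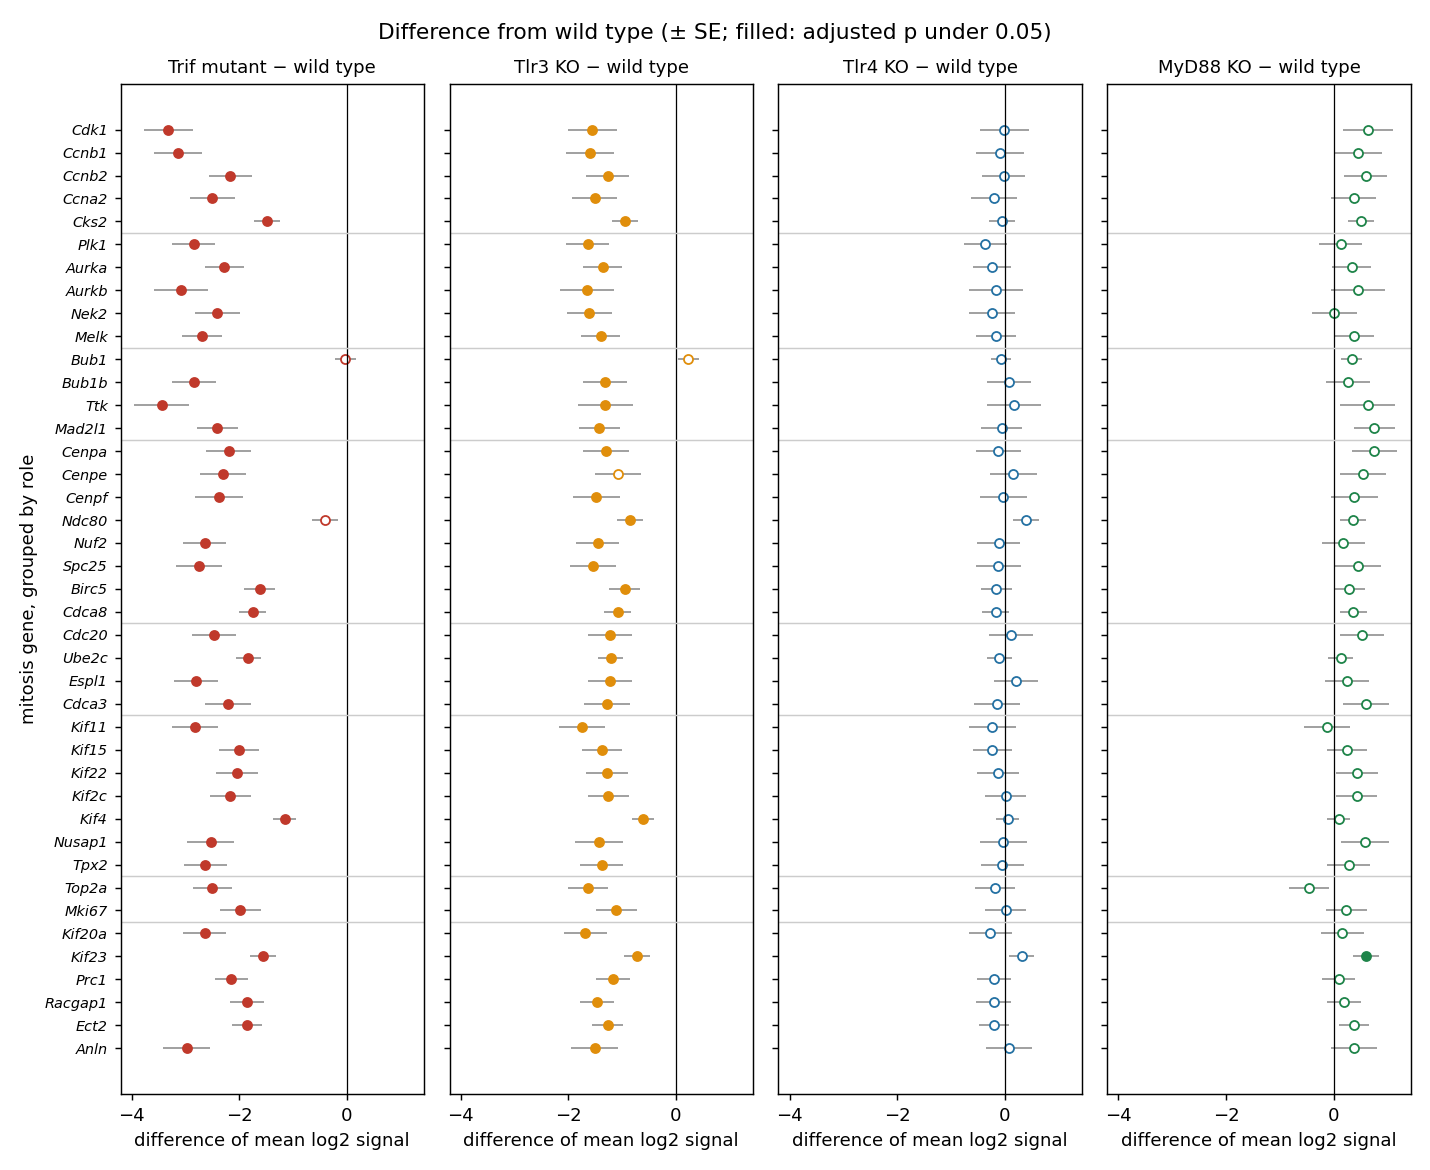
Difference of mean log2 signal from wild type for each of the 41 mitosis genes (points, filled where the adjusted p is under 0.05; lines: ± SE) in the 4 mutant genotypes, genes grouped by role. The Trif mutant points centre on -2.38 and the Tlr3 KO points on -1.32, those of the Tlr4 KO mice lie between -0.36 and 0.39, and in the MyD88 KO mice Kif23 is the only filled point.

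Other probes of the same genes were used as a check on these values. There were 22 genes with more than 1 kept probe and 27 further probes in all. Of these, 26 were below zero in Trif mutant minus wild type and 23 in Tlr3 KO minus wild type. The 14 further probes that were well above background on all 20 arrays were below zero in both comparisons without exception, with medians of -2.49 and -1.42. Some of the further probes gave another call than the probe used, in a fit over all 31603 kept probes. A dim probe of Nuf2 (A_52_P207347, well above background on 7 arrays) was higher in the Tlr3 KO mice by 0.94 ± 0.28 (adjusted p = 0.0130), against the fall of Nuf2 described above. In the Tlr4 KO mice probes of Top2a (A_52_P156502, detected on 7 arrays, 1.77 ± 0.42), Cenpa (A_52_P328630, 5 arrays, 1.59 ± 0.47), Kif11 (A_52_P177802, 6 arrays, 1.25 ± 0.34) and Cdca8 (A_52_P463220, 13 arrays, 1.10 ± 0.29) were higher, with adjusted p of 0.00829, 0.0300, 0.0205 and 0.0147. The same probes of Top2a, Cenpa and Kif11 were also higher in the MyD88 KO mice, by 1.64, 1.36 and 1.25. These 5 probes carry accessions of cDNA clones rather than RefSeq transcripts. In the MyD88 KO mice a probe of Top2a detected on all 20 arrays (A_52_P415299) was lower by 1.48 on the log2 scale (adjusted p = 0.0108). One of Nusap1 (A_52_P69281, 18 arrays) was lower there by 1.14 (adjusted p = 0.0107). The further probe of Kif23 (A_52_P27602) gave the same call as the probe used, higher in the MyD88 KO mice by 0.63 ± 0.24 (adjusted p = 0.0424). Some further probes missed the fall of the probe used. A probe of Cdk1 (A_52_P339954, 17 arrays) differed by -1.67 ± 0.26 in the Trif mutants. It did not pass in the Tlr3 KO mice, at -0.29 ± 0.26 (adjusted p = 0.383). The further probe of Anln, and those of Top2a, Cenpa and Kif11 named for the Tlr4 KO mice, fell in neither genotype. The named Nuf2 probe did not fall in the Trif mutants, nor the named Cdca8 probe in the Tlr3 KO mice.

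The mice of a genotype did not all show the same level, and the 41 genes moved together from mouse to mouse. Averaged over the 41 genes, each taken relative to its mean over the 20 arrays, the wild type arrays stood at 0.87, 0.62, 0.57 and 0.55 (0.65 ± 0.15, SD, n = 4). The Trif mutants stood at -1.24, -2.56, -2.18 and -0.47 (-1.61 ± 0.94) and the Tlr3 KO mice at -0.15, -1.06, -1.13 and -0.17 (-0.63 ± 0.54). The Tlr4 KO mice stood at 0.68, 0.87, 0.77 and 0.04 (0.59 ± 0.38) and the MyD88 KO mice at 0.97, 1.33, 0.72 and 0.97 (1.00 ± 0.25). Trif mutant replicate 2 had the lowest value of its genotype for 37 of 41 genes and replicate 4 the highest for 37. In the Tlr3 KO mice replicate 3 was lowest for 30 genes. In the Tlr4 KO mice replicate 4 was lowest for 40, and in wild type replicate 1 was highest for 40. The SD between the 4 Trif mutants had a median of 1.07 over the 41 genes and 0.27 over all features. In wild type the medians were 0.18 and 0.22. They were 0.57 and 0.22 in the Tlr3 KO mice, 0.39 and 0.22 in the Tlr4 KO mice and 0.29 and 0.24 in the MyD88 KO mice. The spread of these genes was thus widest in the Trif mutants. The wild type mice were all of the same apparent sex and the Trif mutants were not, so genotype and sex cannot be told apart in this spread. The model pools the spread of all genotypes, and its standard errors are therefore too small for the Trif mutants and too large for wild type.

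**Figure D4:**
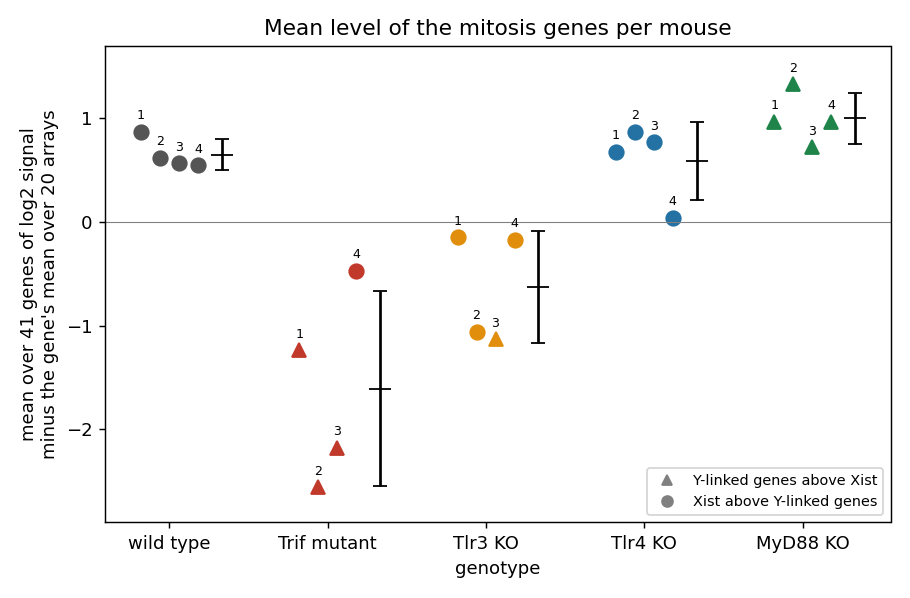
Mean over the 41 mitosis genes of the log2 signal minus the gene's mean over 20 arrays, for each mouse (points, numbered by replicate), with mean ± SD per genotype of 4 (bars); triangles mark arrays where Y-linked signal exceeded Xist. The Trif mutants spread from -2.56 to -0.47 and the Tlr3 KO mice from -1.13 to -0.15, all below the lowest wild type mouse at 0.55.

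Within the 4 slides that held a wild type, a Trif mutant and a Tlr3 KO mouse, the direction was the same on each. Each genotype had the same position on all of them, so these differences do not separate genotype from position. The median difference of the 41 genes between Trif mutant and wild type was -2.16, -3.50, -2.83 and -1.01 on the slides of replicates 1 to 4. It was -1.04, -1.76, -1.76 and -0.75 between Tlr3 KO and wild type. The slide of replicate 4 had the smallest differences in both comparisons. Trif mutant and wild type mice were of the same apparent sex on that slide only. Tlr3 KO and wild type mice were of the same apparent sex on the slides of replicates 1, 2 and 4 (-1.04, -1.76 and -0.75). They differed in apparent sex on the slide of replicate 3 (-1.76). The part of sex in the size of the slide differences was not tested. With Xist signal as a covariate 39 genes fell in the Trif mutants, with the median reduced to -1.53, and 37 fell in the Tlr3 KO mice, with a median of -1.11. Of all features 10.4% and 12.7% fell in that fit. Of the Tlr3 KO mice only replicate 3 had Y-linked signal above Xist. Without it 23 of the 41 genes passed the test at a median of -1.17, and without replicate 2 it was 25 genes at -1.20. Of all features 11.4% and 11% were lower in these 2 fits.

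Between Trif mutants and Tlr3 KO mice 13 of the 41 genes passed the test, all lower in the Trif mutants, against 10% of all features called lower. The median difference was -0.93, against a median of -0.05 for all features. By limma's unadjusted p 33 genes were under 0.05, and 40 genes were below zero. The shares of all features that match these last counts were not taken. The 13 were Cdk1, Ccnb1, Plk1, Melk, Bub1b, Ttk, Nuf2, Cdc20, Espl1, Tpx2, Kif23, Prc1 and Anln. Cdk1 differed by -1.77 ± 0.46 (adjusted p = 0.0119). Ttk differed by -2.13 ± 0.51 (adjusted p = 0.00705), but Ttk and Anln are near the detection limit in the Trif mutants and, after normexp, lay at 0.24 and 0.08, on the other side of zero. Ndc80 was the one gene on the other side of zero, at 0.44 ± 0.24 (adjusted p = 0.222). For 0 of the 41 genes did all Trif mutant arrays lie below all Tlr3 KO arrays (11.1% of all features). Trif mutant replicate 4, the highest of its genotype for 37 genes, lay at -0.47 on the 41-gene mean, between the Tlr3 KO mice. The count rested on single mice: it was 36 without Trif mutant replicate 4, where 10.7% of all features were called lower. It was 3 without Trif mutant replicate 2, Trif mutant replicate 3 or Tlr3 KO replicate 1 (7.62%, 9.17% and 7.09% of all features). It was 4 without Tlr3 KO replicate 4 (7.58%) and 1 with the Xist covariate (8.44%). When the model was fitted to these 2 genotypes alone, 0 genes passed (6.6%). The counts from 0 to 4 are near or below the shares of all features, and are no result about the mitosis genes. Within the slides the medians were -1.14, -1.56, -1.1 and -0.28.

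In the Tlr4 KO mice 0 of the 41 genes fell and 0 rose by limma's adjusted p, and 0 had an unadjusted p under 0.05, while 3.12% of all features were lower and 9.56% higher. The differences lay between -0.36 (Plk1) and 0.39 (Ndc80), with a median of -0.10, and the standard errors between 0.19 and 0.51. Differences of this size, and larger ones, can go undetected with 4 mice per genotype and the pooled spread of this model. Cenpe, for example, did not pass at -1.08 in the Tlr3 KO mice. With only those mice and wild type fitted, 40 of the 41 genes, all but Bub1, fell (13.9% of all features). The same kind of fit for Tlr4 KO and wild type gave 0 genes in either direction (3.27% of all features lower and 9.19% higher). Under median scaling 5.87% of all features were lower and 6.38% higher, again with 0 mitosis genes in either direction. Within the slides the median was -0.21, 0.22, 0.18 and -0.59, the last with replicate 4. Against the Tlr4 KO mice the Trif mutants were lower for 40 of 41 genes by the test (median -2.30, with 17.5% of all features lower). The Tlr3 KO mice were lower than the Tlr4 KO mice for 39 genes (median -1.28, with 13.3% of all features lower). The latter count was 7 without Tlr3 KO replicate 2 and 8 without Tlr3 KO replicate 3 (7.73% and 8.56% of all features lower). It was 18, 8 and 21 without Tlr4 KO replicate 1, 2 and 3 (8.87%, 7.62% and 10.8%). It was 23 with the Xist covariate (10.3%) and 19 after normexp background correction (3.71%).

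In the MyD88 KO mice 1 of the 41 genes rose, Kif23 (0.60 ± 0.24, adjusted p = 0.0476), and 0 fell, against 37.2% of all features higher and 12.2% lower. The median difference was 0.37, close to the median of all features at 0.31, and under median scaling it was -0.05, so that the direction depends on the scaling (28.8% of all features were then lower and 15% higher, with 0 mitosis genes in either direction). Kif23 did not pass when wild type replicate 1, 2 or 4 or MyD88 KO replicate 1 or 4 was left out. The differences ran from -0.46 ± 0.37 for Top2a to 0.75 ± 0.42 for Cenpa. For 9 of 41 genes all MyD88 KO arrays lay above wild type, which was so for 30.9% of all features. Fitted with wild type alone, 12 genes rose and 1, Top2a, fell, while 34.4% of all features rose and 11% fell. The 12 are thus no result about the mitosis genes. With the Xist covariate 32 rose at a median of 1.30, while 26.5% of all features rose and their median was 0.34. However, every MyD88 KO and no wild type array had Y-linked signal above Xist, so sex, scan and genotype cannot be told apart here. Against the MyD88 KO mice the Trif mutants were lower for 40 genes (median -2.76, with 37% of all features lower) and the Tlr3 KO mice for 40 (median -1.66, with 33.4%). Between MyD88 KO and Tlr4 KO mice 0 genes passed in either direction by limma and 2 had an unadjusted p under 0.05, with a median of 0.43, and 33.3% of all features were higher and 14.6% lower. Under median scaling 17.7% of all features were higher and 25.1% lower in that comparison, with a median of 0.16 for the mitosis genes.

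Put in order of their means, 27 of the 41 genes ran from MyD88 KO through wild type, Tlr4 KO and Tlr3 KO down to the Trif mutants, and 10 more differed only in that Tlr4 KO lay above wild type. The MyD88 KO mean was highest for 38 genes and the Trif mutant mean lowest for 39. The shares of all features that follow this order were not taken, and all features had a median of 0.31 in MyD88 KO minus wild type. Under median scaling the MyD88 KO mean was highest for 16 genes and the wild type mean for 23, so the top of this order depends on the scaling, while the Trif mutant mean was again lowest for 39. Among the MyD88 KO, wild type and Tlr4 KO means, the difference of Kif23 between MyD88 KO and wild type was the only one that passed the test. Between the Tlr3 KO and Trif mutant means it was passed by the 13 genes named above.

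The remainder of the cell cycle machinery was followed in 10 lists of other genes, 180 of them measured. Of the 180, 126 fell and 19 rose in the Trif mutants (median -1.21), and 125 fell and 7 rose in the Tlr3 KO mice (median -0.92). The shares of all features that fell and rose were 15.7% and 28.6% in the Trif mutants and 13.8% and 24.7% in the Tlr3 KO mice. In the Tlr4 KO mice 3 of the 180 fell and 6 rose (median -0.01), against 3.12% and 9.56% of all features. In the MyD88 KO mice 11 fell and 33 of the 180 rose, a smaller share than the 37.2% of all features that rose there, and their median of 0.28 was near the 0.31 of all features. Of 22 other kinesin, spindle and cytokinesis genes 20 fell in either genotype (medians -2.46 and -1.34). Hmmr, which binds spindle microtubules, differed by -3.13 ± 0.51 in the Trif mutants and Kif18b, a motor that trims astral microtubules, by -3.09 ± 0.47. Other kinetochore and centromere genes fell in 30 of 35 cases in either genotype (medians -2.01 and -1.15), and Hjurp rose in both. Kntc1 and Cenpi changed most in the Trif mutants, each by -2.78 ± 0.41. Of 10 other genes of mitotic entry 8 fell in either genotype, among them Cdc25c, the phosphatase that switches CDK1 on (-2.94 ± 0.28 in the Trif mutants), and the cyclin Ccnf (-2.51 ± 0.34).

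Of 31 DNA replication genes 28 fell in the Trif mutants (median -1.76) and 27 in the Tlr3 KO mice (median -1.20), Mcm5 (-3.09 ± 0.39) and Pola1 (-3.07 ± 0.47) by most in the Trif mutants. Of 8 cyclins and kinases of G1 and S phase 7 fell in either genotype, with Ccnd1, cyclin D1, at -3.00 ± 0.31 and Ccne1 at -2.06 ± 0.26 in the Trif mutants. In the lists that follow, the counts of genes that rose in the Trif mutants are to be read against the 28.6% of all features that rose, and those near that share are no result about the list. Of 20 condensin and cohesin genes 10 fell and 3 rose in the Trif mutants (median -0.38). The condensin subunit Ncaph (-2.89 ± 0.36) and the cohesin acetyltransferase Esco2 (-2.74 ± 0.56) were the lowest there. The 17 genes of the anaphase-promoting complex and its regulators fell in 5 and rose in 5 cases (median -0.15). The inhibitor Fbxo5 (-2.18 ± 0.34) and the conjugating enzyme Ube2s (-0.91 ± 0.17) were lowest, while the core subunit Anapc2 was higher by 0.69 ± 0.11 (adjusted p = 9.6e-05). Of 10 centrosome duplication genes 6 fell and 1 rose, Plk4 (-2.11 ± 0.30) and Stil (-1.72 ± 0.20) by most. Of 7 CDK inhibitors 1 fell (Cdkn2c, -0.77 ± 0.22) and 2 rose (Cdkn1b, 0.52 ± 0.10, and Cdkn1c, 0.65 ± 0.19).

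Of 20 transcription factors of the cell cycle 11 fell and 6 rose in the Trif mutants, and 10 fell and 1 rose in the Tlr3 KO mice. Foxm1 and Mybl2, activators of the G2 wave that act through the homology region, fell in the Trif mutants by 2.52 ± 0.42 and 2.03 ± 0.21, and E2f7, a repressor of the E2F family, by 2.63 ± 0.44. In the Tlr3 KO mice Foxm1 differed by -1.24 ± 0.42 (adjusted p = 0.0267) and Mybl2 by -1.04 ± 0.21 (adjusted p = 0.00115). Rbl2, which encodes the p130 subunit of the repressive DREAM complex, rose in the Trif mutants by 0.89 ± 0.11 (adjusted p = 1.7e-05) and differed by -0.01 ± 0.11 in the Tlr3 KO mice. Mybl2, Rbl2, Anapc2, Hjurp and Cdkn1b were chosen after their values had been seen. The 28 mitosis genes whose promoter holds a homology region motif had a median of -2.19 in the Trif mutants and the 9 without one had -2.41. In the Tlr3 KO mice the medians were -1.28 and -1.42.

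**Figure D5:**
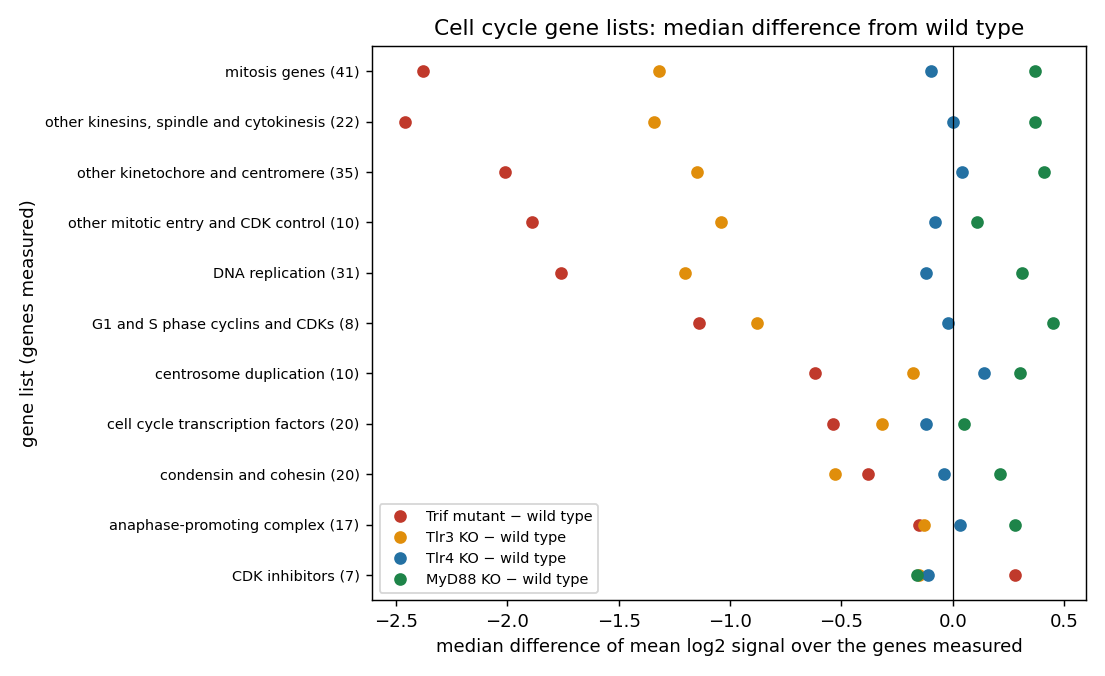
Median difference of mean log2 signal from wild type (x axis) over the measured genes of the 41 mitosis genes and of 10 other cell cycle lists (rows, number of genes in brackets) in the 4 mutant genotypes (colours). The mitosis genes and the list of other kinesins lie furthest to the left in the Trif mutants (-2.38 and -2.46), the anaphase-promoting complex (-0.15) lies near zero, and the CDK inhibitors (0.28) lie to the right.

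Markers of some cell types in the preparation moved alongside. Their counts are to be read against the shares of all features. Of these features 15.7% fell and 28.6% rose in the Trif mutants and 13.8% and 24.7% in the Tlr3 KO mice. The shares in the MyD88 KO mice were 12.2% and 37.2%. Marker counts near those shares are no result about the cell type. Of 12 crypt stem cell markers 9 fell in the Trif mutants (median -1.14) and 10 fell and 1 rose in the Tlr3 KO mice (median -0.88), whereas 10 rose in the MyD88 KO mice (median 0.67). Their summed linear level, in units of the array's 75th percentile, was 32 to 35.7 in wild type, 25 to 32 in the Trif mutants, 29.1 to 37.4 in the Tlr3 KO mice and 45 to 55.2 in the MyD88 KO mice. Of 14 absorptive enterocyte markers 12 rose in the Trif mutants (median 0.60) and 10 in the Tlr3 KO mice (median 0.56), and their sums were 1560 to 2330 in wild type, 2840 to 3070 in the Trif mutants and 2730 to 3230 in the Tlr3 KO mice. In the MyD88 KO mice 7 of the 14 fell and 2 rose (median -0.54), with sums of 1790 to 2260. Of 7 measured Paneth cell markers 3 fell in the Trif mutants (median -1.23), 5 fell in the Tlr3 KO mice (median -1.56) and 6 rose in the MyD88 KO mice (median 1.71). The Paneth cell sums were 31 to 102 in wild type, 21.2 to 31.8 in the Trif mutants, 9.93 to 20.5 in the Tlr3 KO mice and 102 to 587 in the MyD88 KO mice. Tuft cell markers rose in the Trif mutants in 7 of 8 cases (median 1.33) and in the Tlr3 KO mice in 0 of 8. Of 10 measured T cell markers 1 rose in each of the 2 genotypes, with sums of 10.7 to 20.9 in wild type, 9.77 to 19.2 in the Trif mutants and 9.94 to 21.3 in the Tlr3 KO mice. Of 7 myeloid markers 2 fell and 2 rose in each of these genotypes and 3 rose in the MyD88 KO mice. The myeloid sums were 39.2 to 77.5 in wild type, 18.3 to 39.5 in the Trif mutants, 12 to 24.3 in the Tlr3 KO mice and 95.6 to 204 in the MyD88 KO mice. B cell sums were low throughout, at 0.536 to 0.723 in wild type, 0.225 to 0.3 in the Trif mutants, 0.348 to 0.506 in the Tlr3 KO mice and 0.596 to 1 in the MyD88 KO mice. Ms4a1, Pax5, Blk and Fcrla were undetected in the Trif mutants. Pax5 and Fcrla were undetected in wild type as well, and Fcrla also in the Tlr3 KO mice. Fibroblast and smooth muscle markers (9) did not pass in the Trif mutants and rose in 2 cases in the Tlr3 KO mice, and Pdgfra was below the detection limit throughout wild type, Trif mutant and Tlr3 KO mice. All absorptive enterocyte, goblet cell and crypt stem cell markers were detected on at least 1 array of every genotype. The part of these cell types in the differences of the mitosis genes was not tested.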

How the data were processed

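Expression was measured in 20 mice, 4 per genotype. The intensity used is the processed signal of each spot as deposited, background-subtracted by Agilent Feature Extraction 10.7.3.1, per the file headers. The authors' deposited value table equals that signal times 1 factor per array (1.58 to 2.27) with a floor of 15, and served as an alternative.

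Of 45018 spots the 1639 controls and outlier flags were left out. Log2 signals were scaled to each array's 75th percentile, and 31603 of 41174 probes were kept, those detected above background on 4 or more arrays. Gene names were updated through RefSeq (GRCm38.p6, names and promoters only), which matched 26690 probes. The files' probe positions are mm9. With limma 3.58.1 (R 4.3.3), 1 model of genotype means on all 20 arrays gave 10 comparisons, and the script was tested on simulated data. The series describes the samples as individual animals, so p-values measure the spread between mice, and their number limits the precision.

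Members, gene lists and alternatives were chosen with earlier results of these data known. Array by array the text gives, in each role group, the gene with the highest mean signal, and Cdk1 and Mki67. It further names genes with the largest or smallest differences, those that did not pass, and the 2 most changed called genes of each other list. Some further mitosis genes were named within their role groups after their values had been seen. Deviations of same-numbered arrays correlated above 0.1 in all 4 pairs for Tlr4 KO and wild type (r = 0.17 to 0.35 over features), where the slides they share give the pairing, and in 3 of 4 pairs for Trif mutant and wild type and for Trif mutant and Tlr3 KO.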

Additional observations from a re-analysis of the deposited data

Results flagged for a closer look

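Among 60 groups of 4 arrays examined (5 genotypes for each of 9 genes given array by array, for Bub1, for Ndc80 and for the mean over the mitosis genes), 2 had an array far from the other 3, both in the Tlr4 KO mice and both at replicate 4. Chance alone sets apart about 1 group in 20. Cks2 lay at 3.31 on that array and at 3.77 to 3.82 on the other 3, the gap being 0.902 of the whole range. Kif22 lay at 2.73, with the others at 3.50 to 3.60 and a gap of 0.885 of the range. The same mouse was the lowest of its genotype for 40 of the 41 mitosis genes.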

How the results depend on the processing

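Counts of mitosis genes called lower stayed within 1.5 times of the reported count under every alternative run for Trif mutant minus wild type (36 to 40 genes), Trif mutant minus Tlr4 KO and both comparisons of Trif mutants and Tlr3 KO mice with MyD88 KO mice. Leaving out 1 array gave 39 genes for Trif mutant minus wild type, 39 to 40 against Tlr4 KO, 40 to 41 against MyD88 KO, 23 to 40 for Tlr3 KO minus wild type, 7 to 40 for Tlr3 KO minus Tlr4 KO, 40 for Tlr3 KO minus MyD88 KO and 3 to 36 for Trif mutant minus Tlr3 KO. That last count of 13 became 7 after normexp background correction (offset 50) and 7 under median scaling, with 2.6% and 5.94% of all features lower. It became 0 with only the 2 genotypes (6.6% of all features) and 1 with Xist as a covariate (8.44%). On the arrays of scan day 1 alone, an alternative chosen after seeing the data, it was 8 (10.2%). Tlr3 KO minus Tlr4 KO went from 39 to 19 under normexp (3.71% of all features) and to 23 with Xist (10.3%). MyD88 KO minus wild type went from 0 genes lower to 1 with only the 2 genotypes (11% of all features lower). After normexp Ttk, Kif2c and Anln no longer passed in Trif mutant minus wild type (36 genes lower). In Tlr3 KO minus wild type Ttk, Ndc80, Espl1, Kif15, Kif2c, Kif4, Kif23 and Anln no longer passed and Cenpe did (32 genes lower). Normexp also moved the median of all features in Trif mutant minus wild type from 0.19 to 0.52, and median scaling moved that of MyD88 KO minus wild type from 0.31 to -0.10. The other gene lists were tested under the 75th percentile scaling alone.

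With the replicate block over all 20 arrays the counts were 39, 39, 0 and 0 for Trif mutant, Tlr3 KO, Tlr4 KO and MyD88 KO minus wild type, and with slide as a block 39, 39 and 0 for the first 3. The pairing changed no count of genes called lower by over 1.5 times, while Kif23 no longer passed in MyD88 KO minus wild type. Among values that passed the test in either setting, those of Bub1, Ttk and Anln turned direction: averaging all kept probes gave Bub1 -0.70 in Tlr3 KO minus wild type (adjusted p = 0.0259 by limma) and -1.49 in Trif mutant minus Tlr4 KO (adjusted p = 9.9e-05), since the second probe then enters. Under normexp, Trif mutant minus Tlr3 KO was 0.24 for Ttk (adjusted p = 0.695) and 0.08 for Anln (adjusted p = 0.907), 2 genes near background in the Trif mutants; the cause was not tested.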
